A study of Mus musculus with 24 samples.

Results

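A pair of ways of activating the heat shock response were set side by side in the muscle of R6/2 mice, a heat shock (HS) and the HSP90 inhibitor HSP990. R6/2 mice are transgenic for exon 1 of a mutant human HTT gene and are used as a model of Huntington's disease. Members were picked by their labels, for a comparison chosen with earlier results of these data known. They were the 8 R6/2 libraries, of 24 in all, that came from control, HS, vehicle and HSP990 treated mice. Each group held 2 mice, 12 weeks old, on a CBA by C57BL/6 background, and the quadriceps femoris was collected once 4 h had passed since treatment. HS mice were anaesthetized with isoflurane and warmed on a heating pad to a core temperature of 41.5 °C, which was held for 15 min. Their controls had the same anaesthesia and were kept at 36.9 °C for 21 min. HSP990 was given by gavage at 12 mg/kg, and the vehicle mice were gavaged without it. The 2 experiments thus had baselines of their own, anaesthesia with mock heating in one and gavage in the other. The mice of a group were separate animals. The transgene was carried by all 8 mice, controls included.

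Heat shock factor 1 (HSF1) is the transcription factor that switches on chaperone genes when proteins unfold. In unstressed cells it is held in check by chaperones, HSP90 among them, and an HSP90 inhibitor frees it without heat. HSP90 also keeps the ligand-binding domain of the glucocorticoid receptor open for its hormone, so that the receptor is one of the best known HSP90 clients. Stress hormones released by an animal reach muscle through that receptor, where its targets include genes of fuel use and of protein breakdown.

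The question was whether the 2 treatments moved the same genes by the same amount. For each gene the HS response, which is log2 of HS over control, was set against the HSP990 response, which is log2 of HSP990 over vehicle. Their difference, HS response minus HSP990 response, was tested as an interaction with edgeR's quasi-likelihood test and is called higher where the HS response was the greater one. A gene was called where its Benjamini-Hochberg adjusted p was below 0.05. Levels are given as CPM, counts relative to a library's total after scaling. The R6/2 libraries held 29251097 to 35168663 counts. Of 17846 autosomal genes in the table, 13256 passed the filter on low counts. Genes on the X and Y chromosomes were left out, because 4 Y-linked genes had 0 to 4 counts in the R6/2 mice of the HS experiment and 6702 to 9392 in those of the HSP990 experiment. The sex of the mice and the experiment therefore cannot be told apart.

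The 2 responses differed at 219 autosomal genes, 1.65% of those tested. The HS response was the higher one at 179 (1.35%) and the HSP990 response at 40 (0.302%). Taken singly, HS called 6 genes (0.0453%), all of them up, and HSP990 called 194 (1.46%), with 64 up (0.483%) and 130 down (0.981%). Of the 179 genes called higher, 176 had an HS response above 0 and an HSP990 response below 0, with a median of 0.90 after HS and of -1.25 after HSP990. In 139 both responses had an unadjusted p below 0.05, and the HSP990 response was the larger one in size in 125. The 40 genes called lower had medians of -0.36 after HS and 1.30 after HSP990. Among them 29 had an HS response below 0 and an HSP990 response above 0, and in 11 both were above 0. In both sets many genes had passed the test in neither treatment alone, 77 of the 179 and 12 of the 40. Muscle was sequenced in bulk, so fewer cells of a type and less RNA per cell cannot be told apart.

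**Figure D1:**
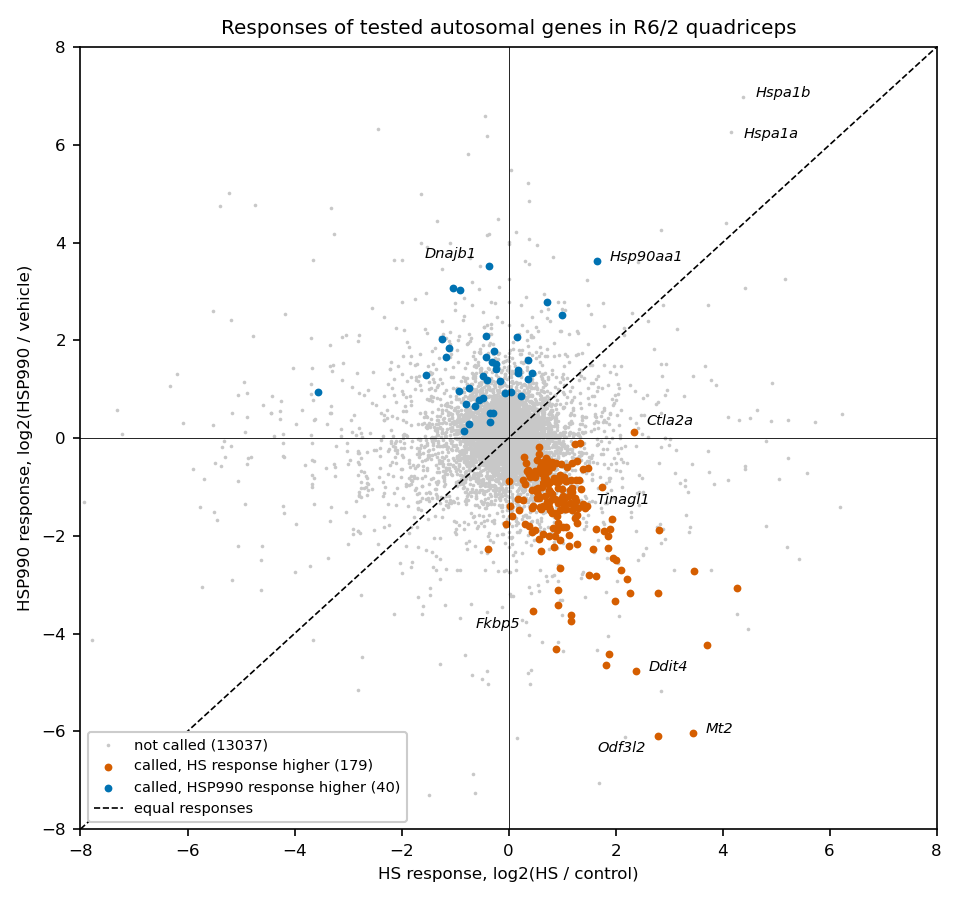
HS response (x axis, log2 of HS over control) against HSP990 response (y axis, log2 of HSP990 over vehicle) for the 13256 tested autosomal genes, each a point. The 179 genes called higher lie below the dashed line of equal responses, nearly all at the lower right, the 40 called lower lie above it, and Hspa1a and Hspa1b sit at the upper right without being called.

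The number of calls depended on single mice. It was 96 without control replicate 2, 106 without vehicle replicate 2, 121 without HSP990 replicate 2 and 141 without HS replicate 1, and it was 345 without vehicle replicate 1 and 438 without HS replicate 2. HS alone called 482 genes without HS replicate 2 and 3 without HS replicate 1. HSP990 alone called 49 without vehicle replicate 2, 59 without HSP990 replicate 1 and 74 without HSP990 replicate 2. With only the 8 R6/2 libraries in the fit, which leaves 4 residual degrees of freedom in place of 12, 23 genes were called. Of the 47 called genes that the naming rule picked, 5 were among these 23, namely Dnajb1, Hspa4l, Odf3l2, Tnfsf10 and Tinagl1.

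More chaperone genes were called up after HSP990 than after HS. The 3 called up after both, Hspa1a, Hspa1b and Hsp90aa1, rose more after HSP990 in their fitted values. The 70 tested members of 6 chaperone lists had 20 genes up and 1 down after HSP990 and 3 up after HS. In the difference 9 were called lower and 1 higher, against 0.302% and 1.35% of all tested genes, and the median difference was -0.24 beside -0.02 for all genes. The 9 became 5 without HS replicate 1, vehicle replicate 2 or HSP990 replicate 2.

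Hspa1a and Hspa1b encode the stress-inducible HSP70, which refolds damaged proteins. Hspa1b (NCBI gene 15511, mm9 chr17:35093381-35096183, minus strand) stood at 8.94 and 2.00 CPM in control mice, 124.0 and 106.5 after HS, 8.46 and 4.78 with vehicle and 739.0 and 931.8 after HSP990. All 4 treated mice stood above all 4 untreated ones, and both HSP990 mice stood above both HS mice. The HS response was 4.39 ± 0.502 (SE, adjusted p = 0.0011) and the HSP990 response 6.97 ± 0.56 (adjusted p = 2.7e-06). Their difference of -2.59 ± 0.638 missed the threshold at an adjusted p of 0.051, as did that of Hspa1a (NCBI gene 193740, mm9 chr17:35106144-35109069, minus strand) at -2.11 ± 0.699 with 0.19. The difference of Hspa1b was called without control replicate 2 (0.0066) or vehicle replicate 1 (0.037), with library size scaling (0.049), with no filter (0.03) and with DESeq2 on 24 libraries (0.012). Hspa1a held 157.8 and 119.3 CPM after HS and 573.3 and 724.7 after HSP990, from 3.90 to 11.7 in the 4 untreated mice. The HS and HSP990 responses of Hspa1a, 4.15 and 6.26, were both called, the former not without control replicate 2 (adjusted p = 0.07). Each of the 2 genes has 1 near-identical copy in mm9, so how their reads were shared out is uncertain.

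Hsp90aa1, the inducible HSP90 and itself the target of HSP990, moved in the same direction and passed the test of the difference. Its level was 19.8 and 11.2 CPM in control mice, 50.0 and 47.7 after HS, 22.8 and 17.1 with vehicle and 194.2 and 297.8 after HSP990. The HS response was 1.65 ± 0.239 and the HSP990 response 3.62 ± 0.256, and the difference of -1.97 ± 0.332 had an adjusted p of 0.0044. Hsp90aa1 (NCBI gene 15519, mm9 chr12:111928815-111940938) has 2 near-identical copies and stayed called in the difference whichever mouse was left out, while its HS response was lost without control replicate 2 or HS replicate 1, at up to 0.14. The constitutive Hsp90ab1 stood at 2234 and 1817 CPM in control mice, 2222 and 2270 after HS, 2057 and 2088 with vehicle and 2934 and 3664 after HSP990. The control and HS mice overlapped, and its HSP990 response of 0.67 ± 0.138 was called (adjusted p = 0.019, up to 0.20 with 1 vehicle mouse or HSP990 replicate 2 left out) while the difference of -0.52 was not (adjusted p = 0.28).

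Dnajb1, an HSP40 that hands substrates to HSP70, had the lowest adjusted p of the difference among the chaperones. Its level was 10.2 and 11.6 CPM in control mice and 7.88 and 9.02 after HS, and 11.4 and 9.33 with vehicle and 94.9 and 142.9 after HSP990. The HS mice thus lay below their controls, while the HSP990 mice lay far above every other mouse. The paper itself reports, by qPCR in larger groups, that heat shock induced this gene in the same muscle of wild type and transgenic mice. The low HS level of Dnajb1 is therefore given for the sequenced mice only. The HS response was -0.37 ± 0.302 (adjusted p = 0.81), the HSP990 response 3.52 ± 0.322 (adjusted p = 1.5e-05) and the difference -3.89 ± 0.434 (adjusted p = 0.00064). Dnajb1 (NCBI gene 81489, mm9 chr8:86132074-86135801) stayed called whichever mouse was left out and under every other setting tried. Dnaja1, another HSP40, went from 4.51 and 4.38 to 8.68 and 9.02 CPM with HS, which missed the threshold at an adjusted p of 0.053. With HSP990 it went from 4.83 and 4.16 to 21.3 and 29.8 CPM, and the difference was -1.51 ± 0.25 (adjusted p = 0.0039). Dnaja1 overlaps Smu1 in mm9, and reads of the 2 genes could not be told apart if strand was not used in counting.

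The other chaperones called lower were HSP110 proteins, which release nucleotide from HSP70, and co-chaperones of HSP90. Hspa4l stood between 11.9 and 14.3 CPM in the 4 untreated mice, at 13.6 and 17.1 after HS and at 49.9 and 56.4 after HSP990, with a difference of -1.92 ± 0.274 and an adjusted p of 0.0019. Hsph1 stood at 111.1 and 112.8 CPM in control mice, 118.2 and 169.4 after HS, 137.1 and 138.6 with vehicle and 359.8 and 474.7 after HSP990. Its difference of -1.24 ± 0.256 (adjusted p = 0.016) was not called in 4 of the 8 fits that left out 1 mouse, with an adjusted p of up to 0.096. Ahsa2, related to an activator of the HSP90 ATPase, had a difference of -1.15 ± 0.219 (adjusted p = 0.0098), lost in 3 of those fits at up to 0.073. Stip1, which links HSP70 to HSP90, Unc45b, the myosin chaperone of muscle, and Fkbp4, an immunophilin of steroid receptor complexes, had differences of -0.84, -0.88 and -0.62. Among these 6 genes the HS response was 0.16 to 0.44 and passed the test in none, while the HSP990 response was 0.87 to 2.07 and passed it in each.

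**Figure D2:**
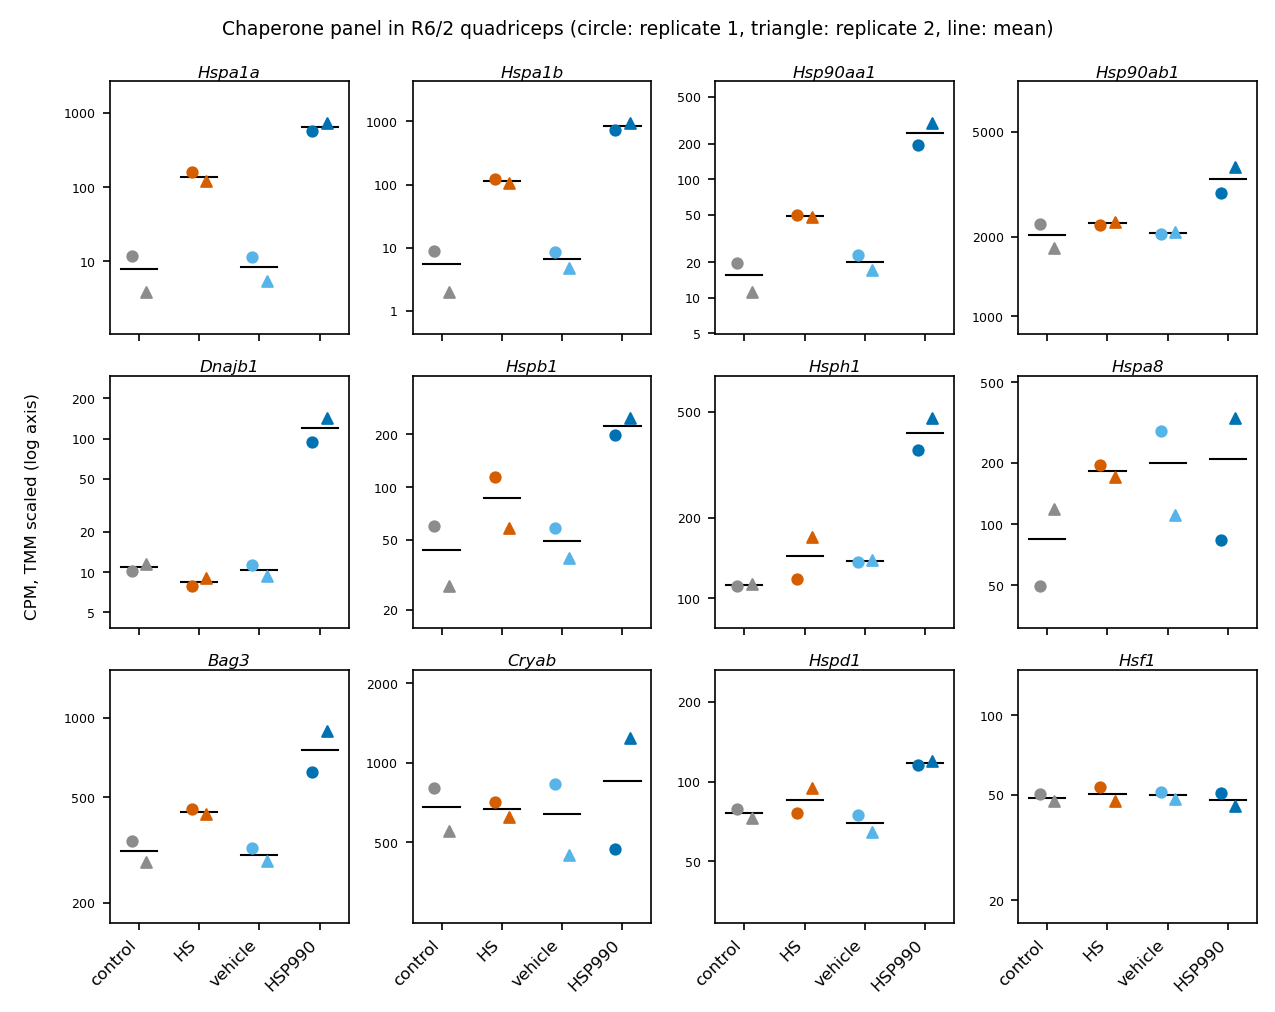
Level of 12 heat shock genes in each of the 8 R6/2 mice (y axis, CPM on a log axis), by group (x axis), with circles for replicate 1, triangles for replicate 2 and a line at the mean of the 2 mice. Hspa1a, Hspa1b and Hsp90aa1 are raised in both treated groups and highest after HSP990, Dnajb1 is raised after HSP990 with both HS mice below their controls, and Hsf1 stays between 45.3 and 53.7 CPM in all 8 mice.

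Other chaperones of the panel chosen here passed the test after HSP990 without passing that of the difference. Hspb1, a small HSP that holds unfolded proteins, stood at 60.3 and 27.2 CPM in control mice, 114.3 and 58.1 after HS, 58.4 and 39.6 with vehicle and 198.1 and 249.0 after HSP990. The control and HS mice overlapped and the vehicle and HSP990 mice did not, and the HSP990 response of 2.19 ± 0.403 was called, though not without vehicle replicate 2 (adjusted p = 0.17) or HSP990 replicate 2 (0.072), while the difference of -1.21 had an adjusted p of 0.44. Bag3, which couples small HSPs and HSP70 to autophagy in muscle, stood at 450.3 and 432.5 CPM after HS and 621.7 and 892.6 after HSP990, from 285.5 to 341.5 in the untreated mice, and its difference was -0.82 with an adjusted p of 0.11, or 0.035 without HSP990 replicate 1 and 0.044 with DESeq2 on 24 libraries. The mitochondrial chaperonin Hspd1 had an HSP990 response of 0.76 ± 0.122, lost without vehicle replicate 2 at 0.092, and a difference of -0.59 with an adjusted p of 0.11, or 0.024 without HS replicate 2. Hspa8, the constitutive HSP70, and Cryab were spread widely within groups, with 83.3 and 334.1 CPM of Hspa8 in the 2 HSP990 mice, and neither passed any test. Hspb1 and Hspd1 have 1 near-identical copy each and Hspa8 has 3, and Hspd1 overlaps its neighbour Hspe1. Hsf1 itself (NCBI gene 15499) had a difference of 0.11 ± 0.177 with an adjusted p of 0.93. In the difference, no member of the CCT chaperonin (8 tested), small HSP and BAG (11) and mitochondrial chaperone (13) lists was called, and none of 17 ER chaperones was called in any of the 3 tests.

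The heat shock element is an array of alternating GAA and TTC units. It is the element that HSF1 binds, and it is shown for the genes of the panel of 12 whose windows hold it and for Dnaja1. In RefSeq windows that reach 250 bases upstream of a start (GRCm38.p6), the 3-unit forms, GAA then TTC then GAA or the reverse complement TTC then GAA then TTC, with 2 bases of any kind between units, were found at 139 of 27025 genes (0.514%), at 0 of the 145 genes called higher that had a window and at 1 of 33 called lower, the water and glycerol channel Aqp7. Among the 10435 tested autosomal genes with a window, 53 (0.508%) held one of these forms. Of the 12 panel genes 7 had a window, and Hspd1 alone held a 3-unit form. The 2-unit forms, GAA then TTC or TTC then GAA at the same spacing, each of which reads the same on both strands, were searched after the values were known. They lie within the 3-unit forms and were found at 14.5% of all genes and 12.2% of tested autosomal genes. The share was 11.7% of those called higher and 18.2% of those called lower. Stretches that hold an element are given here 5′ to 3′ on the gene's strand, with the element in capitals, and in Hspd1 the capitals span 2 overlapping 3-unit elements.
Hspd1, chr1:55088053-55088082, minus strand: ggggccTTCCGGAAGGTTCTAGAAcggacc
Hspa1b, chr17:34959295-34959382, minus strand: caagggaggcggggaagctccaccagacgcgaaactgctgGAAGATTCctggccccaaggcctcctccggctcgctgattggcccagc
Hspb1, chr5:135887762-135887869, plus strand: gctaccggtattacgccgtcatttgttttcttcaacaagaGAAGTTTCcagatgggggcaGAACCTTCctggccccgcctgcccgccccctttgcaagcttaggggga
Hsph1, chr5:149636337-149636409, minus strand: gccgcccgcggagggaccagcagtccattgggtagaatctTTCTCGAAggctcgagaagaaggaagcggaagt
Dnaja1, chr4:40722304-40722391, plus strand: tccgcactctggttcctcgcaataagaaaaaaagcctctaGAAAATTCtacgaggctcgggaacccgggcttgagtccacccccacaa
The Hspa1a stretch is the same as that of Hspa1b letter for letter, and the 2 windows share 247 of 250 bases. The window of Fkbp4 held a 2-unit element too, and those of Dnajb1 and Bag3 held neither form. A match is a run of letters and not a measured binding site.

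Genes called lower outside the chaperone lists numbered 31. Nle1, a factor for assembly of the large ribosomal subunit, rose after HSP990. It stood at 7.40 and 8.48 CPM in control mice, 16.3 and 9.77 after HS, 8.56 and 7.85 with vehicle and 46.9 and 66.0 after HSP990, and its difference was -2.07 ± 0.299 (adjusted p = 0.0019). Nle1 overlaps Fndc8 in mm9 and lies beside Unc45b. In others the HS mice lay on the opposite side of their controls. Ankrd34a stood at 2.11 and 2.00 CPM in control mice, 0.733 and 1.01 after HS, 2.36 and 1.16 with vehicle and 6.90 and 7.45 after HSP990, and its difference was -3.26 ± 0.411 (adjusted p = 0.001). Slc29a2, a nucleoside transporter, stood at 10.0 and 9.95 CPM in control mice, 6.18 and 8.68 after HS, 5.09 and 3.10 with vehicle and 13.1 and 12.7 after HSP990. Its difference was -2.08 ± 0.329 (adjusted p = 0.003), and its vehicle level was below its control level by a log2 of -1.28 ± 0.235 (adjusted p = 0.067), so that the HSP990 mice stood nearer to the control mice than to their own vehicle mice. Nle1, Ankrd34a and Slc29a2 stayed called whichever mouse was left out.

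Calls on several signalling genes of this set rested on single mice. Nppc, the precursor of C-type natriuretic peptide, stood at 0.387 and 0.739 CPM with vehicle and 4.75 and 4.34 after HSP990, against 0.507 and 2.03 in control mice and 0.733 and 0.603 after HS. Its difference of -3.92 ± 0.867 (adjusted p = 0.026) was lost in 7 of the 8 fits that left out 1 mouse, at an adjusted p of up to 0.24. Tnfsf10, the death ligand TRAIL, stood at 9.67 and 13.2 CPM in control mice, 3.78 and 4.02 after HS, 13.2 and 8.00 with vehicle and 27.8 and 23.9 after HSP990. Neither response alone was called for Tnfsf10, but the difference of -2.84 ± 0.575 was (adjusted p = 0.014, up to 0.11 with 1 mouse left out). Chek2, a kinase of the DNA damage checkpoint, Myct1, an endothelial gene, Hhex, a homeobox factor, and Tppp, which binds tubulin, had differences of -2.95, -2.82, -2.50 and -2.06. Each of these 4 was lost without control replicate 2, and Chek2 also without vehicle replicate 2, at an adjusted p of up to 0.068. Hhex and Tppp were lost in 4 of the 8 fits, at up to 0.18 and 0.19.

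Targets of the glucocorticoid receptor moved in the opposite way to the chaperones. Of 21 tested members of the list 15 were called higher, where 1.35% of all tested genes were, and none lower. All 21 had a difference above 0, with a median of 2.89 beside -0.02 for all genes. HSP990 lowered 13 of them, with a median response of -1.82, and HS called none, with a median of 0.97 and 20 of 21 above 0. The count of 15 was 9 without control replicate 2, 8 without vehicle replicate 2, 9 without HSP990 replicate 2 and 1 with only the 8 R6/2 libraries in the fit, where the median was 2.90. The lists share members. Mt1, Mt2, Trim63, Cebpd, Nfkbia, Cdkn1a and Per1 were called in this list and are counted again in other lists below. The receptor gene Nr3c1 had a difference of -0.43 ± 0.227 with an adjusted p of 0.57.

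Fkbp5 encodes a co-chaperone of HSP90 in steroid receptor complexes and is among the best known targets of the receptor. Its level was 402.2 and 132.1 CPM in control mice, 363.6 and 367.2 after HS, 301.3 and 245.6 with vehicle and 12.4 and 34.4 after HSP990. Only the HSP990 mice stood apart from the rest. The HSP990 response was -3.54 ± 0.685 (adjusted p = 0.013), the HS response 0.45 ± 0.618 (adjusted p = 0.90) and the difference 3.99 ± 0.909 (adjusted p = 0.031). Fkbp5 was the 1 chaperone list member called higher, and it was lost in 5 of the 8 fits that left out 1 mouse, at an adjusted p of up to 0.17. Map3k6, a stress kinase, stood at 27.1 and 6.33 CPM in control mice, 63.4 and 59.3 after HS, 13.6 and 72.4 with vehicle and 1.91 and 2.11 after HSP990. Its difference was 6.29 ± 0.981 (adjusted p = 0.0029). Cebpd, a transcription factor of the acute phase response, stood at 123.1 and 157.6 CPM after HS and 10.3 and 8.30 after HSP990, with 39.1 to 130.8 in untreated mice, and its difference was 4.33 ± 0.765 (adjusted p = 0.0058). Nfkbia, the inhibitor of NF-kB, had a difference of 3.33 ± 0.56 (adjusted p = 0.0044) and stood at 58.2 and 60.4 CPM after HS and 8.99 and 8.45 after HSP990. In each of the 4 genes the HSP990 mice lay below every other mouse.

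Ddit4, an inhibitor of mTORC1, had 98.1 and 14.7 CPM in control mice, 319.6 and 272.7 after HS, 50.2 and 281.0 with vehicle and 4.99 and 7.09 after HSP990. The 2 HSP990 mice were the lowest, but vehicle replicate 2 stood between the 2 HS mice. The HS response of Ddit4 was 2.39 ± 0.822, the HSP990 response -4.77 ± 0.928 and the difference 7.16 ± 1.24 (adjusted p = 0.0051). The call on its HSP990 response was lost without vehicle replicate 2 or either HSP990 mouse, at up to 0.20. Klf15, a regulator of amino acid breakdown in muscle, moved less but with less spread, with 137.9 and 91.3 CPM in control mice, 220.5 and 220.7 after HS, 152.8 and 214.6 with vehicle and 61.2 and 43.0 after HSP990. Its difference was 2.76 ± 0.35 (adjusted p = 0.001). The 6 tested members that were not called included Pdk4 and Foxo1, with differences of 2.08 and 2.93 and adjusted p of 0.10 and 0.053, and Dusp1 and Angptl4, with 0.73 and 1.20.

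**Figure D3:**
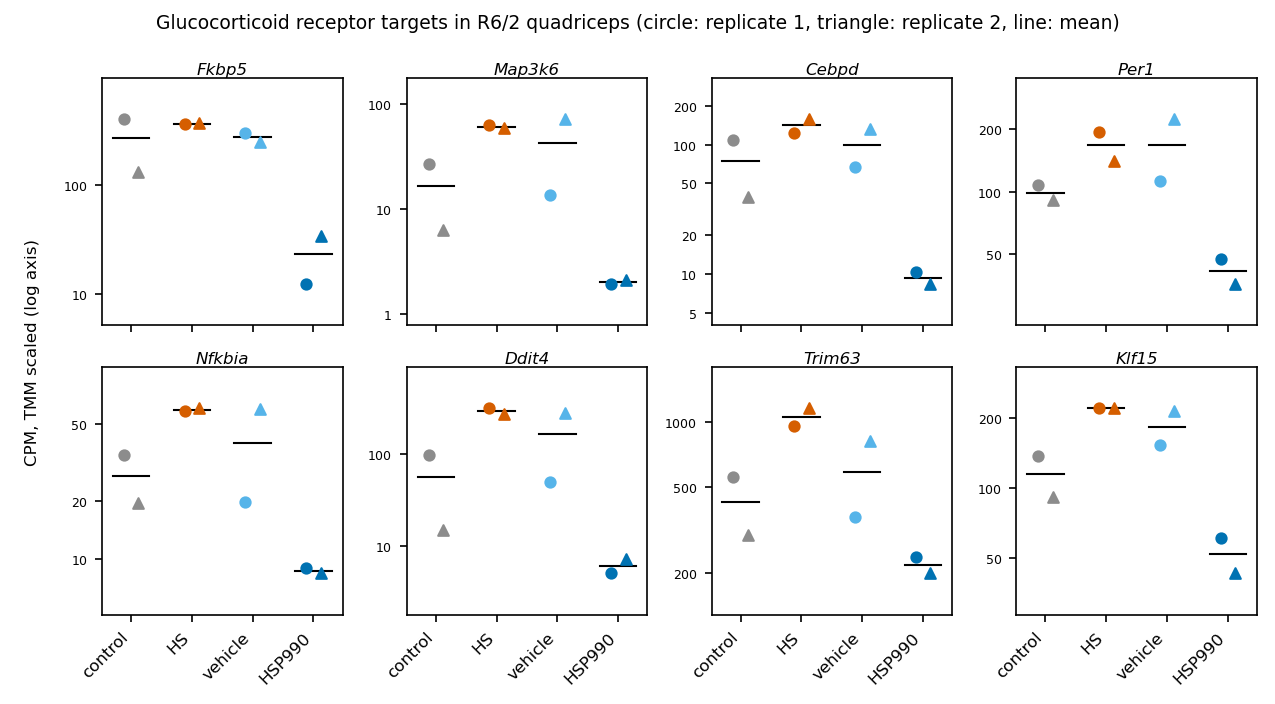
Level of 8 targets of the glucocorticoid receptor in each of the 8 R6/2 mice (y axis, CPM on a log axis), by group (x axis), with circles for replicate 1, triangles for replicate 2 and a line at the mean. The 2 HSP990 mice are the lowest in all 8 genes. Vehicle replicate 2 lies above the lower HS mouse for Map3k6, Cebpd, Per1, Nfkbia and Ddit4, and just below both HS mice for Klf15.

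The untreated mice did not agree on these genes. The mean log2 level of the 21 targets was 6.65 and 5.51 in control mice, 7.49 and 7.36 after HS, 6.18 and 7.21 with vehicle and 4.69 and 4.57 after HSP990. Vehicle replicate 2 was thus nearer to the HS mice than to the other vehicle mouse, and control replicate 1 was above control replicate 2. Over the 179 genes called higher, vehicle replicate 2 was at or above the lower HS mouse in 108 (60.3%), near the 68.8% over all tested genes. The other untreated mice were so in fewer, vehicle replicate 1 in 27 (15.1%), control replicate 1 in 16 (8.94%) and control replicate 2 in 3 (1.68%), against 65.6%, 68.1% and 72.5% over all tested genes. Vehicle replicate 2 was above vehicle replicate 1 in 163 of the 179, and in 53.2% of all tested genes. The 179 were chosen on a difference that these same mice enter, with control subtracted and vehicle added. Their counts are therefore a description only.

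A perfect palindrome of the glucocorticoid response element, GAACA then 3 bases of any kind then TGTTC, which reads the same on both strands, was searched for after the values were known. It was found in the RefSeq windows (GRCm38.p6) of 10 of 27025 genes (0.037%) and of 3 of 10435 tested autosomal genes (0.0287%). It was held by 2 of the 145 genes called higher and by 0 of 33 called lower. The 2 were Trim63 and Sgk1, both members of the list, and they are shown for that reason with the palindrome in capitals.
Trim63, chr4:134314872-134314964, plus strand: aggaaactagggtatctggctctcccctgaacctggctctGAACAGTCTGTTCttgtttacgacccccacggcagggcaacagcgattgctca
Sgk1, chr10:21993696-21993720, plus strand: cggaaaGAACAGAATGTTCtcggag
Trim63 encodes MuRF1, the ubiquitin ligase that marks myosin for degradation in atrophy. It stood at 557.3 and 302.4 CPM in control mice, 958.8 and 1165 after HS, 365.9 and 816.8 with vehicle and 237.3 and 200.1 after HSP990. Its HS response was 1.30 ± 0.344 (adjusted p = 0.21), its HSP990 response -1.43 ± 0.346 (adjusted p = 0.049) and the difference 2.74 ± 0.488 (adjusted p = 0.0061). Sgk1, a kinase that regulates ion transport, had 104.7 and 79.8 CPM after HS and 30.6 and 20.4 after HSP990, and its difference was 2.13 ± 0.418 (adjusted p = 0.012).

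Of 16 tested members of the atrophy list, 3 (18.8%) were called higher, Trim63 among them, and the median difference was 0.35. Over all tested genes 1.35% were called higher, with a median of -0.02. Foxo3, a transcription factor upstream of the atrophy ligases, had a difference of 1.67 ± 0.317 (adjusted p = 0.0092), from 68.4 and 51.8 CPM after HS and 30.1 and 25.1 after HSP990, and was lost in 3 of the 8 fits with 1 mouse left out at up to 0.075. Cblb, a ubiquitin ligase of the insulin pathway, had a difference of 1.13 ± 0.277 with an adjusted p that rounds to 0.05, and was lost in 5 of them at up to 0.24. Fbxo32, the other ligase most used as a marker of atrophy, was not called, with a difference of 0.95 ± 0.446.

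Metallothioneins, which buffer zinc and are induced by metals and by glucocorticoids, had the largest difference among the called genes. Mt2 (NCBI gene 17750, mm9 chr8:96696518-96697467) stood at 22.9 and 6.81 CPM in control mice, 203.9 and 121.1 after HS, 10.3 and 105.2 with vehicle and 0.413 and 1.29 after HSP990. Both HS mice were above all others and both HSP990 mice below all others, with vehicle replicate 2 close to the lower HS mouse. The HS response of 3.45 ± 0.928 was not called (adjusted p = 0.22, or 0.041 with DESeq2 on 24 libraries), the HSP990 response of -6.03 ± 1.11 was (adjusted p = 0.0096), and the difference was 9.48 ± 1.45 (adjusted p = 0.0026). The HSP990 response alone was lost without vehicle replicate 2 or either HSP990 mouse, at up to 0.16, and the difference was not lost without any one mouse. Mt1 next to it had 192.8 and 88.9 CPM after HS and 3.69 and 4.36 after HSP990, with a difference of 5.98 ± 1.01 (adjusted p = 0.0045). Slc30a2, a zinc exporter, had a difference of 4.47 ± 1.02 (adjusted p = 0.032, lost in 5 of the 8 fits with 1 mouse left out). It had 1.19 and 2.38 CPM in control mice, 8.63 and 2.38 after HS, 5.625 and 11.9 with vehicle and 0.491 and 1.92 after HSP990. Vehicle replicate 2 was thus the highest of all mice. These 3 were the members called of 8 tested (37.5%), and the median difference of the list was 2.30. For all tested genes the share called higher was 1.35% and the median -0.02. Mt1 and Mt2 are also among the called glucocorticoid receptor targets.

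Genes of cytokine signalling and its feedback were called higher in 6 of 23 (26.1%), with a median difference of 1.34. All tested genes had 1.35% called higher and a median of -0.02. The 6 were Cebpd and Nfkbia, which are also in the glucocorticoid receptor list, Cebpb and the receptors Il4ra, Osmr and Il1r1. Il4ra stood at 17.1 and 10.6 CPM in control mice, 63.6 and 39.2 after HS, 16.5 and 50.9 with vehicle and 9.61 and 8.95 after HSP990. Its difference of 3.75 ± 0.542 (adjusted p = 0.0019) stayed called without any single mouse. Of 18 immediate early genes, 2 were called. Maff, a small MAF factor, stood at 25.3 and 32.3 CPM after HS and 2.14 and 3.29 after HSP990, with a difference of 4.50 ± 0.672 (adjusted p = 0.0022). Zfp36, which destabilizes cytokine mRNAs, had a difference of 3.85 ± 0.758 (adjusted p = 0.012, lost in 4 of the 8 fits at up to 0.10). Fos, Jun and Egr1 were among the 16 that were not called.

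Cdkn1a, the cell cycle inhibitor p21, stood at 241.6 and 52.3 CPM in control mice, 303.1 and 272.8 after HS, 148.4 and 342.2 with vehicle and 35.2 and 42.5 after HSP990. Its difference was 3.63 ± 0.789 (adjusted p = 0.023), lost in 5 of the 8 fits with 1 mouse left out at up to 0.16. It was 1 of 2 members called higher in a list of 12 p53 targets whose median difference was 0.33 and which had 9 members above 0, the other being Trp53inp1 at 2.02 ± 0.481 (adjusted p = 0.043, up to 0.28). In the GADD45 and DUSP list 2 of 11 were called higher, with a median of 0.07 and 6 members above 0. They were Gadd45a and Gadd45g, stress sensors that slow the cell cycle, which had differences of 1.62 ± 0.294 (adjusted p = 0.0071) and 3.51 ± 0.796 (adjusted p = 0.031), the latter lost in 6 of the 8 fits at up to 0.23. Of 20 clock genes 2 were called, Per1 and Usp2, with a list median of -0.20. Per1 had 107.3 and 91.0 CPM in control mice, 194.3 and 141.2 after HS, 112.5 and 223.7 with vehicle and 47.4 and 36.0 after HSP990. Its difference was 2.77 ± 0.571 (adjusted p = 0.016, lost in 4 of the 8 fits). That of Usp2, which overlaps Rnf26, was 1.18 ± 0.249 (adjusted p = 0.02, lost in 5 of them). The share called higher was 16.7% in the p53 list, 18.2% in the GADD45 and DUSP list and 10.0% in the clock list. Over all tested genes it was 1.35%, with a median of -0.02. Among 20 ATF4 targets only Stc2 was called, at 2.25 ± 0.452 (adjusted p = 0.014, up to 0.085).

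**Figure D4:**
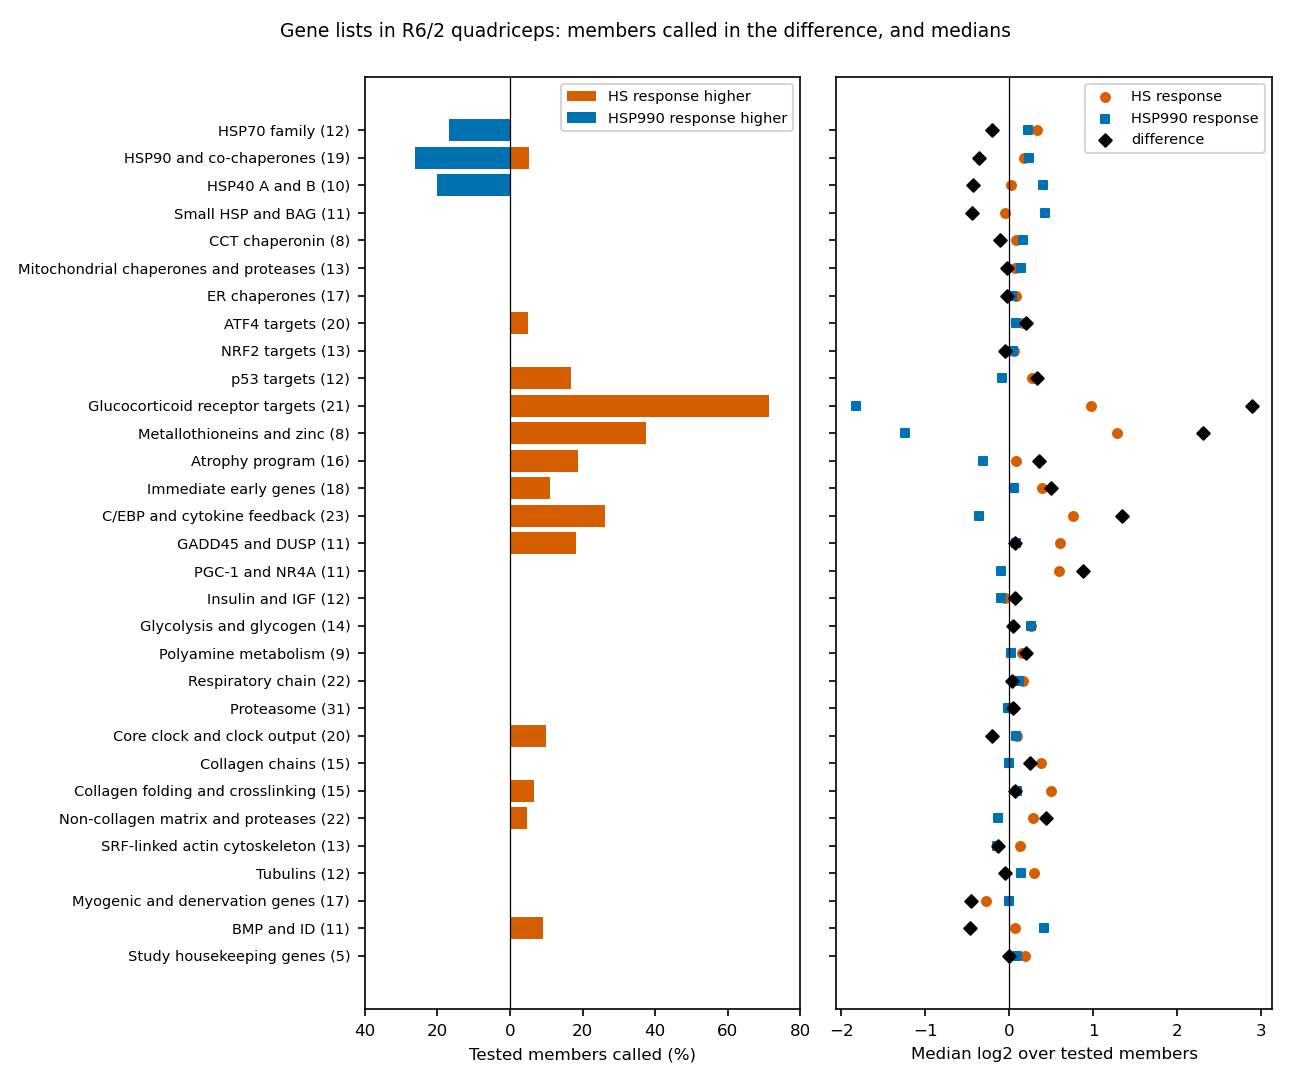
For 31 gene lists, the share of tested members called in the difference (left panel, percent, HS response higher to the right and HSP990 response higher to the left) and the median log2 HS response, HSP990 response and difference (right panel), with the number of tested members in brackets. Targets of the glucocorticoid receptor reach 71.4% higher, and members called lower appear in the HSP70, HSP90 and HSP40 lists alone.

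The largest differences outside the lists were again higher, with the HSP990 mice at or near the bottom. Pnmt, which makes adrenaline from noradrenaline, stood at 0.705 and 0.608 CPM in control mice, 8.40 and 8.79 after HS, 0.530 and 11.5 with vehicle and 0.336 and 0.292 after HSP990. Vehicle replicate 2 was the highest of the 8 mice, and the difference of 7.94 ± 1.50 (adjusted p = 0.0091) was lost in 4 of the 8 fits with 1 mouse left out, at up to 0.13. Tmem252 stood at 23.5 and 8.30 CPM after HS and 13.8 in vehicle replicate 2, and at 0.647 to 1.14 in the other 5 mice. Its vehicle and HSP990 mice overlapped, and its difference was 7.33 ± 1.14 (adjusted p = 0.0029). Odf3l2 had 12.2 and 8.31 CPM in control mice, 54.9 and 87.1 after HS, 12.1 and 60.9 with vehicle and 0.233 and 0.793 after HSP990. Its difference was 8.88 ± 1.57 (adjusted p = 0.0058). Slc10a6 is a sulfated steroid transporter. It had 6.89 and 3.60 CPM in control mice, 22.2 and 14.9 after HS, 4.08 and 23.8 with vehicle and 0.336 and 0.751 after HSP990. Its difference was 6.46 ± 1.12 (adjusted p = 0.0054), with vehicle replicate 2 above both HS mice. The difference of Odf3l2 was lost without control replicate 2 or HSP990 replicate 1, at up to 0.059. Ramp3, a partner of the calcitonin receptor family, and Rtn4rl2, a Nogo receptor relative, had differences of 6.19 ± 1.08 and 5.45 ± 0.806. Their levels were below 10 CPM in all 8 mice. Ramp3 had 9.43 and 2.27 CPM after HS and 0.0775 and 0.229 after HSP990. Rtn4rl2 had 3.09 and 1.29 CPM after HS and 0.155 and 0.146 after HSP990. The sizes of these 2 differences are uncertain at such low counts.

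In the 3 lists of matrix genes, 2 members were called, 1 of 15 for collagen folding and crosslinking, 1 of 22 for non-collagen matrix and proteases and 0 of 15 collagen chains. Eln, which encodes elastin, stood at 19.9 and 18.6 CPM in control mice, 34.5 and 25.4 after HS, 23.7 and 41.4 with vehicle and 9.15 and 7.57 after HSP990, with a difference of 2.60 ± 0.352 (adjusted p = 0.0014). Lox, the enzyme that crosslinks elastin and collagen, had a difference of 1.41 ± 0.337 (adjusted p = 0.042, lost in 5 of the 8 fits with 1 mouse left out). It had 31.1 and 22.1 CPM in control mice, 50.2 and 48.8 after HS, 53.4 and 60.5 with vehicle and 50.8 and 28.6 after HSP990. Both vehicle mice were thus above both HS mice. In the BMP and ID list 1 of 11 was called, Bmp4, a growth factor of the TGF-beta family that overlaps Gm15217, with a difference of 1.71 ± 0.312 (adjusted p = 0.0074). The median of that list was -0.47, with 2 members above 0. Among all tested genes 1.35% were called higher, and the median was -0.02. The lists of NRF2 targets, PGC-1 and NR4A, insulin and IGF, glycolysis, polyamines, the respiratory chain, the proteasome, SRF-linked actin genes, tubulins, myogenic genes and the study's housekeeping genes had no member called in the difference either, and their medians ran from -0.45 to 0.88.

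Few genes passed the test after HS alone. Besides Hspa1a, Hspa1b and Hsp90aa1, HS called Ctla2a, Tinagl1 and Gda. Ctla2a, a cysteine protease inhibitor, stood at 1.74 and 2.38 CPM in control mice, 10.7 and 10.2 after HS, 1.71 and 1.85 with vehicle and 2.07 and 1.83 after HSP990. It rose by 2.34 ± 0.272 with HS (adjusted p = 0.0011) and had an HSP990 response of 0.13 ± 0.272 (adjusted p = 0.96), and the difference was 2.21 ± 0.381 (adjusted p = 0.0051). Gda, guanine deaminase, rose by 1.24 ± 0.21 with HS (adjusted p = 0.043), and its difference was 1.36 ± 0.293 (adjusted p = 0.021). Tinagl1, a matrix glycoprotein, was the 1 gene called in opposite directions. It stood at 54.5 and 39.7 CPM in control mice, 138.3 and 110.3 after HS, 48.0 and 73.5 with vehicle and 27.3 and 20.8 after HSP990. HS raised it by 1.40 ± 0.233 (adjusted p = 0.043), HSP990 lowered it with a response of -1.34 ± 0.234 (adjusted p = 0.0067), and the difference was 2.74 ± 0.331 (adjusted p = 0.001). The HS call was lost without either control mouse or HS replicate 1, at up to 0.33, and the difference stayed called whichever mouse was left out and under every other setting tried. Cyp1a1, a detoxifying enzyme, was listed at 0 and 0.0417 CPM after HSP990 and at 5.95 and 0.320 with vehicle, so that the vehicle mice were far apart. Its HSP990 response was called lower (adjusted p = 0.028), for which no fold is given at such counts. That call was lost without vehicle replicate 1 or either HSP990 mouse, at up to 0.43, and the difference (adjusted p = 0.12) was called without control replicate 1, without vehicle replicate 2 and with DESeq2 on 24 libraries, at 0.042, 0.039 and 0.0063.

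Markers of fibre and cell types were followed in the same mice, and their part in the results was not tested. The 12 fast fibre markers summed to 65770 to 124600 CPM and the 6 slow fibre markers to 13.5 to 193.9, as in a fast muscle, and no marker of either was called in the difference. The slow fibre markers were lower in both HS mice, at 27.9 and 50.3 CPM against 85.7 and 193.9 in controls, and at 172.3 and 13.5 after HSP990 against 69.1 and 179.9 with vehicle, with a median difference of -1.38. The 5 neutrophil markers summed to 8.31 and 2.33 CPM after HS and 6.46 and 0.647 after HSP990, against 0.329 to 2.39 in untreated mice, with 0 of the 5 called. The 10 macrophage markers summed to 87.2 and 96.1 CPM after HSP990, the lowest of the 8 mice, and to 103.1 to 174.0 in the others. Of these 10, 9 had an HSP990 response below 0, with a median of -0.53 and 1 called lower, and 9 had a difference above 0, with a median of 0.41 and 0 called. The 8 adipocyte markers had a median difference of -0.68, with 7 below 0. Plin4, a lipid droplet protein, was the exception and was called higher at 2.44, with 1784 and 1392 CPM after HS and 369.3 and 337.2 after HSP990. Without Plin4 the other 7 summed to 311.3 and 374.3 CPM after HS, 353.6 and 412.2 after HSP990 and 217.1 to 358.7 in untreated mice. Of 9 endothelial markers 1 was called higher, Esam at 1.69. No marker that the table holds was at 0 in all 8 libraries, and 2 of 4 erythroid and 3 of 5 Schwann cell markers were in it.

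The 2 baselines were compared as well, because each response has its own. Vehicle and control mice differed at 3 genes (0.0226%), with Dhrs7c and Cox6b1 lower (0.0151%) and Sord higher (0.00754%) with vehicle, and at 1129 genes at an unadjusted p below 0.05. None of the 3 was called in the difference of responses. Of the 179 genes called higher, 173 had a vehicle level above the control level, against 6599 of all 13256 tested genes. Their median was 0.57 on the log2 scale, so that the baseline subtracted from HSP990 was higher than that subtracted from HS. The difference adds the vehicle level and subtracts the control level, so a call of higher favours such genes. When the HS and HSP990 mice were compared directly, 165 of the 179 were called higher after HS, where 4.01% of all tested genes were, and 39 of the 40 were called lower, where 2.73% were. The genes were chosen on a difference that holds the same treated and untreated mice, so all of these counts are a description only.

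In wild type mice of the same age, treated and tested alike, the same difference called 316 genes (2.38%), 176 higher (1.33%) and 140 lower (1.06%). Of the 219 genes of the R6/2 mice, 218 had the same sign in wild type, 178 of the 179 and 40 of the 40, and 97 and 20 of these were also called there. Median differences were 2.09 and -1.62 in R6/2 mice and 1.63 and -1.13 in wild type. These 219 were selected for a large value in R6/2 mice, so a smaller median in wild type is a description only. The test of R6/2 against wild type in the difference called 0 genes with edgeR, 633 had an unadjusted p below 0.05, and DESeq2 called 2, or 3 with only the groups compared. Dnajb1 had a difference of -3.89 in R6/2 and -2.74 in wild type, Hspa1b -2.59 and 0.65, and Hspa1a -2.11 and 0.11. The 21 targets of the glucocorticoid receptor had medians of 2.89 and 3.00. The 70 members of the chaperone lists had medians of -0.24 in R6/2 and 0.01 in wild type. Of these, 20 were above 0 and 50 below in R6/2, and 35 above and 35 below in wild type. Over the 10731 genes with a mean of 1 CPM or more, the differences of the 2 genotypes had a Pearson r of 0.587.

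**Figure D5:**
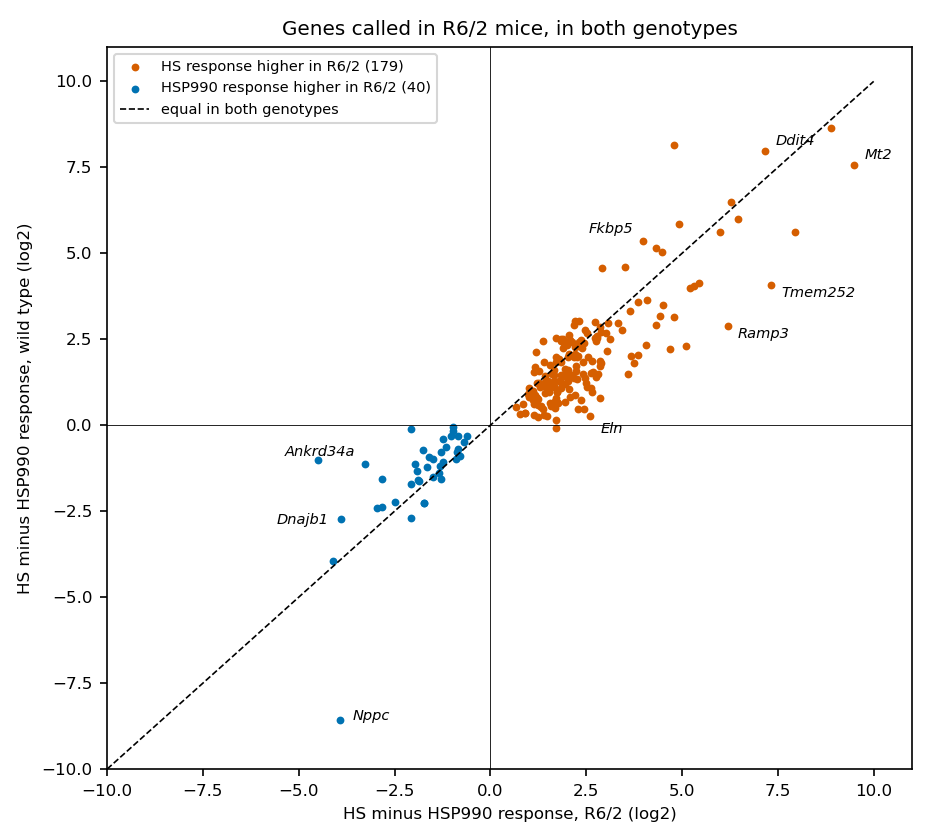
Difference of responses (HS minus HSP990, log2) in R6/2 mice (x axis) against wild type mice (y axis) for the 219 genes called in R6/2 mice, each a point, with a dashed line where both would be equal. Of these, 218 have the same sign in both genotypes, and Eln, Ramp3 and Tmem252 lie well below the line.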

How the data were processed

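PolyA RNA of quadriceps femoris was sequenced with a strand-specific paired-end protocol. The authors deposited a table of read counts per gene for 24 libraries. Their processing notes name mm9, Bowtie and DESeq2, and the counting program, annotation and use of strand are not given in the sources used here. Counts were fitted as deposited with edgeR 4.0.16 (R 4.3.3; TMM scaling, quasi-likelihood F test, 1 mean for each of 12 groups, 24 libraries, 12 residual degrees of freedom). Genes needed at least 2 counts in at least 10 libraries, and p-values were adjusted by Benjamini-Hochberg over all 13754 genes that passed. Totals of 29251097 to 35168663 counts limit counting error, but 2 mice per group limit every test. On simulated counts of 13754 genes for the difference of responses, 26% of genes changed 2-fold and 84% of those changed 4-fold were recovered.

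The members, the gene lists and the naming rule were chosen with earlier results of these data known. The rule named a chaperone panel chosen here and up to 3 called members of each list with the largest differences. It also named the 10 largest called differences in each direction, at a mean of at least 1 CPM. At the same mean it named up to 5 called responses in each direction to each treatment. Genes called in opposite directions were named too. Other genes, such as Klf15, Sgk1, Nr3c1, Stip1, Cebpb and Gda, were named after their values were seen. Gene positions are from GENCODE vM1 (mm9), and near-identical copies were sought with minimap2 2.31-r1302 as matches of at most 0.02 divergence over at least 0.5 of a transcript. Alternatives were other scalings, filters, fits of fewer libraries, a replicate block, DESeq2 1.42.0, direct comparison of the treated mice, and leaving out each mouse in turn.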

Additional observations from a re-analysis of the deposited data

How the results depend on the processing

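With 2 mice per group, counts of calls moved with the fit more than directions did: no called gene named by the rule changed sign in the difference under any alternative. The difference called 23 genes with only the 8 R6/2 libraries (20 higher, 3 lower), 437 with DESeq2 on 24 libraries (324 and 113), 334 with DESeq2 on the groups compared (79 lower) and 889 when the treated mice were compared directly after correction for the baselines (527 and 362). HS called 3 genes with library size scaling, 13 with no filter, 0 with edgeR on the groups compared, and 122 and 62 with DESeq2. HSP990 called 46 with edgeR on the groups compared, and 372 and 301 with DESeq2. The genotype comparison called 2 and 3 with DESeq2. Vehicle against control called 0 with RLE size factors, library size scaling, the groups compared or adjustment over autosomes only, 1 with TMM without the 20 highest genes, and 70 and 11 with DESeq2. Chaperones called lower numbered 2 with the groups compared and 14 with DESeq2 on 24 libraries, and glucocorticoid receptor targets called higher 1 with the groups compared.

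With 1 mouse left out, where the lone mouse of a group is assumed to vary like the others, the difference called 96 to 438 genes (81 to 269 higher, 14 to 169 lower), HS 3 to 482, HSP990 49 to 224, the genotype comparison 0 and vehicle against control 2 to 27. Chaperones called lower ranged from 5 to 13 and receptor targets called higher from 8 to 16. The sign turned for genes that passed no test at that value. With 1 mouse left out, Cryab ran from -0.98 to 0.42 in the difference, from -0.27 to 0.27 after HS and from -0.44 to 0.95 after HSP990 (0.07 after HS without HS replicate 2). Hsf1 ran from -0.05 to 0.14 after HS (-0.06 with library size scaling) and from -0.14 to 0.02 after HSP990, Nppc from -1.59 to 0.40 and Cyp1a1 from -1.71 to 1.51 after HS, and Hspa8 from -1.26 to 0.91 after HSP990 (-0.46 without vehicle replicate 2). With 1 mouse left out, 22 of the 47 named genes called in the difference, 3 of 5 called after HS and 9 of 15 called after HSP990 lost their call in at least 1 fit. Under the alternatives 4 named genes gained a call in the difference and 1 after HS. The causes were not tested.

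The replicate numbers in the labels pair no mice: deviations of same-numbered mice correlated at -0.174 to 0.0856 over 10743 genes. With a replicate block the difference called 210 genes, HS 5, HSP990 173, the genotype comparison 0 and vehicle against control 1, and the HSP990 response of Hspa8 was -0.07.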

Other observations

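The collagen chain list had medians of opposite sign in the 2 genotypes. Of 15 tested collagen chains, 14 had a difference above 0 in R6/2 mice, with a median of 0.25. In wild type mice 0 had one above 0, with a median of -0.96. The mean log2 level of the chains in R6/2 mice was 4.88 and 5.85 in controls and 6.15 and 5.47 after HS. It was 5.46 and 5.86 with vehicle and 6.05 and 5.46 after HSP990. The mice of each R6/2 group thus stood further apart than the median difference of 0.25. The 15 genes of collagen folding and crosslinking had medians of 0.07 in R6/2 mice, with 9 above 0, and -0.66 in wild type mice, and the 22 non-collagen matrix genes and proteases 0.44 and -0.56. Single genes could go the same way in both, as Eln did with 2.60 and 0.26 and Lox with 1.41 and 0.30. The median of R6/2 minus wild type was 1.44, 0.63 and 1.03 for the 3 lists, against 0.02 for all tested genes. No gene passed the edgeR test of that comparison, which called 0 genes (633 at an unadjusted p below 0.05), and the members of a list share the same mice.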
